A study of Drosophila melanogaster with 18 samples.

Results

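The 35 glutathione transferase genes described here are every entry of the count table whose FlyBase symbol starts with GstD, GstE, GstO, GstS, GstT or GstZ, out of 17753 gene entries. They comprise 11 genes of the Delta class, 14 of the Epsilon class, 3 Omega, 1 Sigma, 4 Theta and 2 Zeta genes. The rule uses only gene names, and the families were taken up with earlier results of these data known. Of the 35, 26 passed a filter on low counts and were tested among the 8699 genes that passed it.

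Glutathione transferases join the thiol of the tripeptide glutathione to electrophilic compounds, which makes them easier to export, and several also reduce peroxides. The Delta and Epsilon classes belong to insects and are known for the breakdown of insecticides and of products of lipid peroxidation, whereas the Omega, Sigma, Theta and Zeta classes have relatives in mammals. In flies the transcription factor cnc, the homologue of mammalian Nrf2, drives part of these genes during oxidative stress, and GstD1 is widely used as a reporter of its activity.

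The study sequenced 18 RNA libraries of DL1 cells, a cultured haemocyte-like line of Drosophila melanogaster whose genotype the labels give as wild type, in 6 groups of 3, where replicate sets A, B and C each gave every group 1 library. In 4 groups the cells received 2 µg of double-stranded RNA (dsRNA), taken up by fly cells for RNA interference, against IntS4, IntS6, mts or Pp2A-29B. The first pair are subunits of the Integrator complex, which cuts RNA while it is being transcribed. In protein phosphatase 2A (PP2A), mts is the catalytic subunit and Pp2A-29B the scaffold. The B-gal group received 2 µg of a control dsRNA against a bacterial gene, the Mock group received none, and all cells were then grown for 3 days.

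Libraries held 13445318 to 19298644 counts, of which ribosomal RNA took 65.1% to 74.8%. The mts libraries had the highest ribosomal shares (73.0% to 74.8%, with 66.3% to 71.8% in B-gal), and with ribosomal RNA left out of the totals 1 call was lost and 2 were gained over the 234 pairs of a tested gene and a comparison. The targeted gene was lower in its own group for mts (log2 fold change over B-gal -1.23, edgeR adjusted p = 1.1e-06) and for Pp2A-29B (-1.78, adjusted p = 3.7e-11). Counts of IntS4 and of IntS6 were instead higher in the group labelled with their own dsRNA, by 3.02 and 1.5 on the log2 scale (edgeR adjusted p = 7.6e-05 and 0.00031). Set A was far above the others, with IntS4 at 227, 43.1 and 26.3 CPM (counts per 1000000) in its own group and 11.9 to 12.3 in B-gal, and IntS6 at 150.3, 53.9 and 47.5 in its own and 26.8 to 33.3 in B-gal. Without the set A library of each group the differences were 1.52 and 0.77 (adjusted p = 7.4e-07 and 0.00014). In a count table, reads of the dsRNA itself cannot be told apart from reads of the transcript. Those groups are therefore called IntS4-labelled and IntS6-labelled throughout. The haemocyte markers srp, Hml, Pxn, NimC1, He, crq, Pvr, Col4a1, vkg and ush were all counted in every group. Their summed level was 543 to 602 CPM in B-gal, 1085 to 1520 in the IntS4-labelled and 1085 to 1399 in the IntS6-labelled libraries. It was 516 to 595 CPM in mts and 454 to 517 in Pp2A-29B, but single markers moved in opposite directions. Mean Hml was 2.86 CPM in B-gal, 609 in IntS4-labelled, 601 in IntS6-labelled and 63.5 in Pp2A-29B libraries, with 70.4 to 145 CPM in single mts libraries, while mean Pvr was at 314 CPM in B-gal, 196 in IntS4-labelled, 209.8 in IntS6-labelled, 86.1 in mts and 99.3 in Pp2A-29B libraries. He was at 31.9 CPM in B-gal and 149.8 in mts, and the part of these shifts in the results was not tested. Of the 5 fat body markers, Lsp2, Fbp1, Fbp2, Yp1 and Lsp1beta, no library held more than 0.324 CPM in sum. Markers of the ovarian soma, tj, Fas3 and br, summed to 269.7 to 316 CPM in B-gal. Their sum was 208 to 216 in IntS4-labelled, 250.4 to 259 in IntS6-labelled, 176 to 183 in mts and 210.0 to 227 in Pp2A-29B libraries. Single markers again moved in opposite directions. Mean tj was 157 CPM in B-gal, 72.4 in IntS4-labelled, 87.6 in IntS6-labelled, 32.8 in mts and 46.7 in Pp2A-29B libraries. Mean Fas3 was 23.9, 56.7, 79.8, 33.3 and 32.1 CPM in the same order, and mean br 118, 84.0, 87.2, 113 and 140.2. Neuron markers (elav, nSyb, brp and Syt1) summed to 13.0 to 29.1 CPM over the 5 dsRNA groups. Mean elav was at least 16.0 CPM in these groups, while mean nSyb was at most 0.406 and brp and Syt1 at most 0.0853. In such bulk libraries, fewer cells of a type and less RNA per cell cannot be told apart.

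Knockdown and Integrator-labelled libraries carried more glutathione transferase RNA than the B-gal control, and the increase fell on most of the tested genes. Summed over the 35 genes, the level was 258, 227 and 258 CPM in the B-gal libraries and 257, 272 and 269.9 CPM in Mock. It was 924, 952 and 831 CPM in the IntS4-labelled libraries and 829, 753 and 771 CPM in the IntS6-labelled ones. The mts libraries held 1465, 1355 and 1428 CPM, and the Pp2A-29B libraries 721, 708 and 857 CPM. No library of these 4 groups overlapped the controls, and the mts libraries stood above all others. GstD1 alone supplied 33.3% of the sum in B-gal and 67.2% in mts.

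Among the 26 tested genes, 20 rose and 1 fell in the IntS4-labelled libraries against B-gal (edgeR, adjusted p under 0.05), where 27.0% of all 8699 tested genes rose and 20.2% fell. In the IntS6-labelled libraries 18 rose and 1 fell, against 26.4% and 19.3% of all tested genes. In mts 20 rose and 3 fell, with 26.6% and 24.8% of all tested genes doing so, and in Pp2A-29B 18 rose and 3 fell, with 21.0% and 17.8%. The median log2 fold change of the 26 genes was 1.60, 1.46, 1.36 and 1.15 in these 4 comparisons, while that of all tested genes lay between -0.01 and 0. GstD2, GstD7 and GstE2 passed the filter only through libraries in which they were high. Among the other 23, which also passed on the Mock and B-gal libraries alone, 17, 16, 18 and 16 rose and 1, 1, 3 and 3 fell. Of the 7802 genes that passed so, 22.1%, 21.6%, 25.0% and 17.9% rose and 22.5%, 21.5%, 27.2% and 19.8% fell. All 4 comparisons use the same B-gal libraries.

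**Figure D1:**
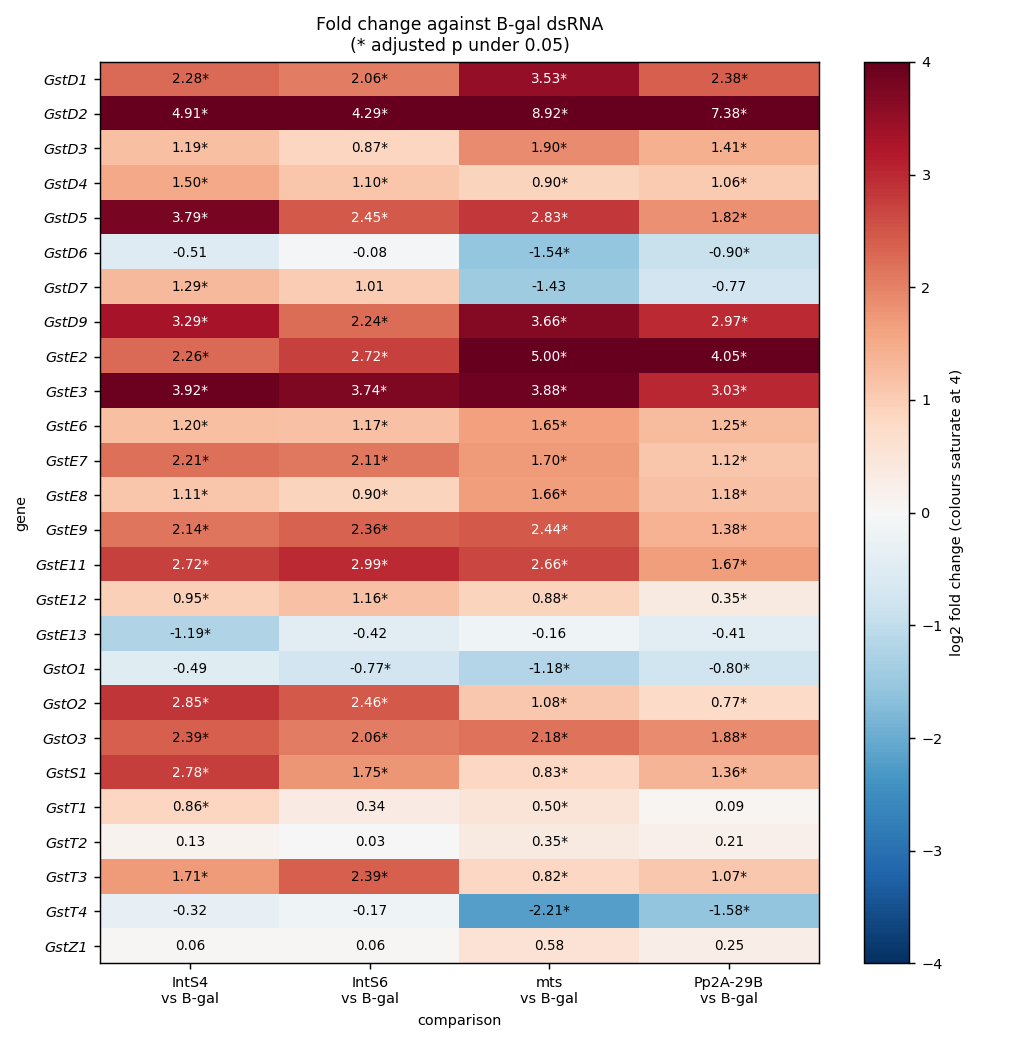
Heat map of edgeR log2 fold changes over B-gal (colour) for the 26 tested glutathione transferase genes (rows) in the 4 dsRNA groups (columns), with 3 libraries per group. Most rows are higher in all 4 columns, GstD6, GstE13, GstO1 and GstT4 have values below 0 in all 4, and the value of GstD2 depends on the prior count because its B-gal libraries hold 0 counts.

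The B-gal and Mock groups did not separate in these genes. By edgeR, 0 of the 26 differed at an adjusted p under 0.05, as did 0.0% of all 8699 tested genes, and 1 of the 26 had an unadjusted p under 0.05. DESeq2 likewise called 0 of them, and over all genes 243 (edgeR) and 198 (DESeq2) had an unadjusted p under 0.05. The gene with that unadjusted p was GstO1, at a log2 fold change of 0.48 ± 0.20 (edgeR adjusted p = 1.0).

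GstD1, of the Delta class, was the most abundant of the 35 genes per length of exon, at 97.8 CPM per kb in B-gal and 1128 CPM per kb in mts. Its product breaks down the insecticide DDT. GstD1 stood at 91.3, 96.7 and 83.1 CPM in Mock, 92, 77 and 78.3 in B-gal and 419, 421 and 359.8 in the IntS4-labelled libraries. GstD1 was at 370.0, 332 and 329 CPM in IntS6-labelled, 988, 896 and 969.5 in mts and 388, 389 and 507 in Pp2A-29B libraries. The 2 control groups overlapped, the IntS4-labelled, IntS6-labelled and Pp2A-29B libraries lay above them without exception, and the mts libraries were higher again than every other library. GstD1 had log2 fold changes over B-gal of 2.28 ± 0.12 for IntS4, 2.06 ± 0.12 for IntS6, 3.53 ± 0.12 for mts and 2.38 ± 0.12 for Pp2A-29B, and the edgeR adjusted p were 1.1e-11, 5.8e-11, 1.2e-12 and 8.1e-11 in that order. Of its 18 counts, 11 were not whole, and the source of the fractions is not stated.

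**Figure D2:**
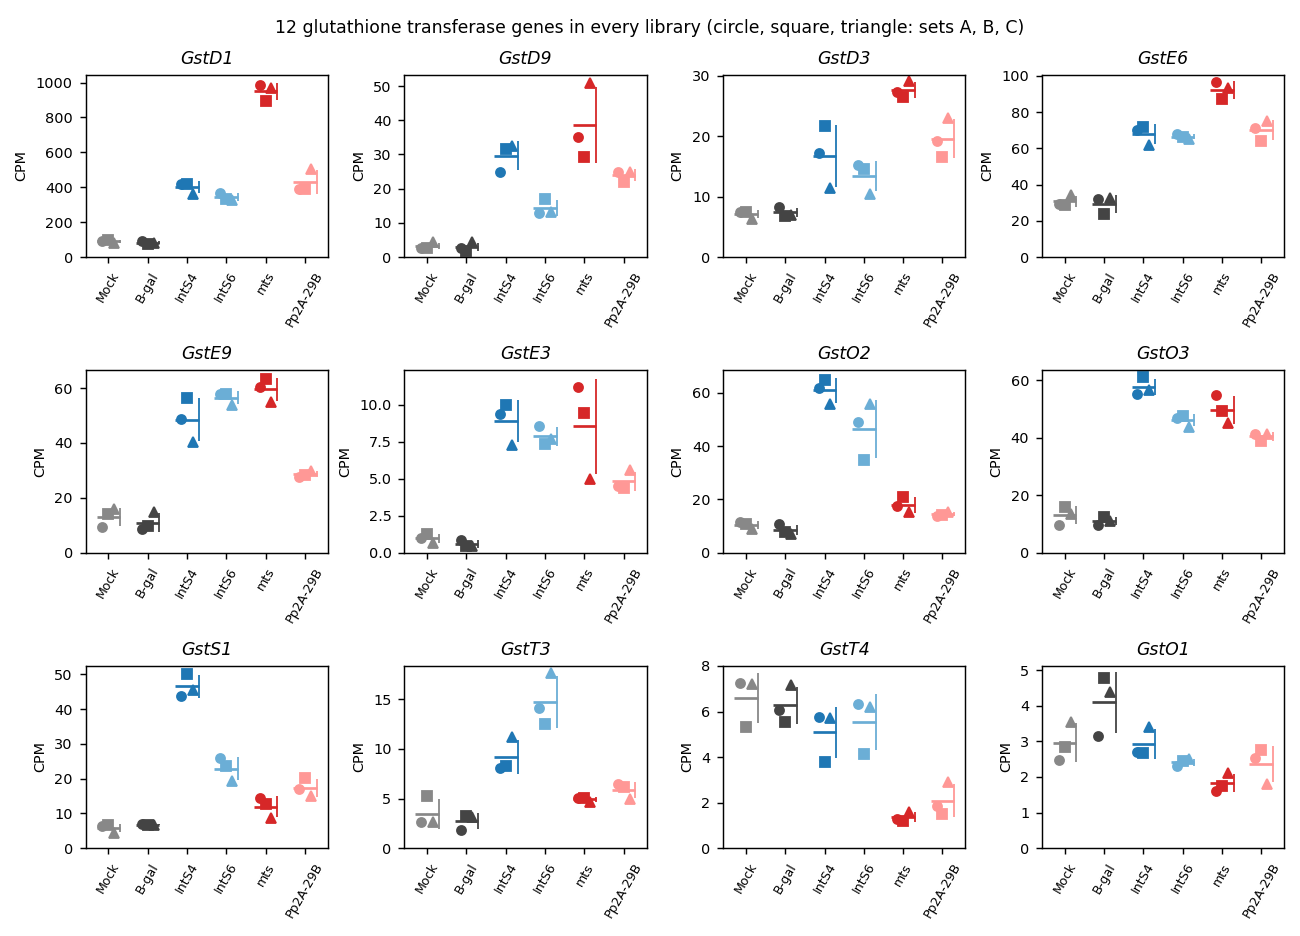
Level in CPM (linear axis from 0) of 12 glutathione transferase genes in each of the 18 libraries by group, with 1 point per library (shape: set A, B or C), a horizontal line at the group mean and a vertical line of ± 1 SD. GstD1 is highest in the 3 mts libraries at 896 to 988 CPM, while GstT4 is lowest there at 1.20 to 1.60 CPM.

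GstD9 and GstD3 followed GstD1 among the Delta genes per length, at 3.85 and 9.92 CPM per kb in B-gal and 48.9 and 37.1 CPM per kb in mts. GstD9 was at 2.79, 2.74 and 4.28 CPM in Mock, 2.8, 1.93 and 4.34 in B-gal and 24.8, 31.6 and 32.6 in the IntS4-labelled libraries. GstD9 was at 12.9, 17 and 13.2 CPM in IntS6-labelled, 35.2, 29.4 and 50.9 in mts and 24.8, 21.9 and 25 in Pp2A-29B libraries. No library of the 4 groups overlapped the controls, and the IntS6-labelled libraries were the lowest of the 4. Against B-gal, GstD9 had log2 fold changes of 3.29 ± 0.25 for IntS4, 2.24 ± 0.26 for IntS6, 3.66 ± 0.25 for mts and 2.97 ± 0.25 for Pp2A-29B (edgeR adjusted p 3e-09, 7.8e-07, 2.8e-09 and 5.9e-08 in that order). GstD3 had 7.55, 7.45 and 6.36 CPM in Mock, 8.32, 6.87 and 7.01 in B-gal and 17.2, 21.7 and 11.4 in the IntS4-labelled libraries. GstD3 was at 15.2, 14.6 and 10.5 CPM in IntS6-labelled, 27.4, 26.5 and 29.1 in mts and 19.3, 16.6 and 23 in Pp2A-29B libraries. The mts libraries were the highest and again no treated library fell within the controls. By edgeR, GstD3 differed from B-gal by 1.19 ± 0.20 for IntS4, 0.87 ± 0.20 for IntS6, 1.90 ± 0.19 for mts and 1.41 ± 0.19 for Pp2A-29B on the log2 scale, at adjusted p of 5.4e-05, 0.0013, 2.7e-07 and 1.6e-05.

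GstD5 was highest on average in the IntS4-labelled libraries. GstD5 was counted at 0.681, 0.658 and 1.41 CPM in Mock, 0.751, 0.483 and 1.78 in B-gal and 16.4, 11.5 and 14.4 in the IntS4-labelled libraries. GstD5 was at 5.44, 4.95 and 6.32 CPM in IntS6-labelled, 4.95, 4.37 and 12.8 in mts and 4.14, 2.44 and 4.14 in Pp2A-29B libraries. The third B-gal library, from set C, was the highest of the controls, and all treated libraries lay above it. For GstD5, edgeR gave log2 fold changes over B-gal of 3.79 ± 0.42 for IntS4, 2.45 ± 0.45 for IntS6, 2.83 ± 0.44 for mts and 1.82 ± 0.47 for Pp2A-29B (adjusted p 5.7e-07, 0.00017, 3.4e-05 and 0.0046). Without that B-gal library the log2 fold changes were 4.55, 3.22, 3.60 and 2.58 in the same order. Without the mts library of set C, which was the highest of its group, the mts value was 2.20.

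GstD2 was not counted in the B-gal libraries. GstD2 had 0.0619, 0.0548 and 0.0611 CPM in Mock, 0, 0 and 0 in B-gal and 0.438, 0.152 and 0.131 in the IntS4-labelled libraries. GstD2 was at 0.168, 0.203 and 0.0658 CPM in IntS6-labelled, 3.86, 2.68 and 4.87 in mts and 0.865, 0.922 and 2.14 in Pp2A-29B libraries. The mts libraries were the highest and the Pp2A-29B libraries the next, and neither overlapped another group. With 0 counts in B-gal, no fold can be given. Ratios are instead taken to 3 counts over the 3 B-gal libraries (0.0597 CPM), as an upper limit for 0. They use the treated counts as they stand, so counting error of the treated group is left out. The ratio was 62.7 in mts, 21.8 in Pp2A-29B, 3.78 in IntS4-labelled and 2.45 in IntS6-labelled libraries. The IntS4-labelled library of set A held 6 of its group's 11 counts, and without it the ratio was 2.39. By edgeR the adjusted p were 0.0061, 0.022, 1.7e-07 and 1.4e-05 for IntS4, IntS6, mts and Pp2A-29B. The IntS6 call was lost without the B-gal library of set B or C (adjusted p = 0.052 and 0.051) or without the IntS6-labelled library of set B (adjusted p = 0.054). In all, 7 reads were counted in the IntS6-labelled libraries. The IntS4 call was lost without the whole of set A (adjusted p = 0.08).

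The remaining tested Delta genes were low, and not all rose. GstD4 had mean levels of 0.808 CPM in B-gal, 2.26 in IntS4-labelled, 1.74 in IntS6-labelled, 1.52 in mts and 1.68 in Pp2A-29B libraries. For GstD4, the log2 fold change over B-gal was 1.5 ± 0.29 for IntS4, 1.10 ± 0.30 for IntS6, 0.90 ± 0.31 for mts and 1.06 ± 0.30 for Pp2A-29B, with edgeR adjusted p of 0.00035, 0.0057, 0.022 and 0.0092 in the same order. The mts call was lost without the B-gal library of set B (adjusted p = 0.11) or the mts library of set C (0.088), and the Pp2A-29B call without the B-gal library of set B (0.056) or the Pp2A-29B library of set A (0.057). GstD6 went the other way in the PP2A groups, with mean levels of 1.91 CPM in B-gal, 1.36 in IntS4-labelled, 1.82 in IntS6-labelled, 0.659 in mts and 1.02 in Pp2A-29B libraries. GstD6 had log2 fold changes over B-gal of -0.51 ± 0.31 for IntS4, -0.08 ± 0.30 for IntS6, -1.54 ± 0.35 for mts and -0.90 ± 0.32 for Pp2A-29B, and the edgeR adjusted p were 0.19, 0.86, 0.0013 and 0.034 in that order. The fall in Pp2A-29B no longer passed when any 1 of the 6 libraries compared was left out, at adjusted p of 0.05 to 0.095.

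GstD7 rose in the IntS4-labelled libraries and did not pass the test in the other 3 groups. Its mean level was 0.820 CPM in B-gal, 1.99 in IntS4-labelled, 1.62 in IntS6-labelled, 0.333 in mts and 0.470 in Pp2A-29B libraries. Against B-gal, GstD7 had log2 fold changes of 1.29 ± 0.47 for IntS4, 1.01 ± 0.48 for IntS6, -1.43 ± 0.65 for mts and -0.77 ± 0.58 for Pp2A-29B (edgeR adjusted p 0.031, 0.098, 0.073 and 0.32 in that order). The IntS4 call was lost without the B-gal library of set C (adjusted p = 0.14) or the IntS4-labelled library of set A or C (0.062 and 0.089). In mts the gene would pass as lower without the B-gal library of set C (log2 fold change -1.86, adjusted p = 0.017) or the mts library of set C (-2.51, 0.014), and by DESeq2 (-1.42, 0.044).

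In the Epsilon class, 8 of the 9 tested genes rose in each of the 4 groups. Of all tested genes, 27.0% did in IntS4-labelled, 26.4% in IntS6-labelled, 26.6% in mts and 21.0% in Pp2A-29B libraries. GstE2, among the 8, passed the filter only through libraries in which it was high. GstE6 was the most abundant of the Epsilon genes per length, at 39.3 CPM per kb in B-gal and 123 in mts. GstE6 was at 29.2, 28.5 and 34.4 CPM in Mock, 31.9, 23.7 and 32.8 in B-gal and 70.1, 71.7 and 61.7 in the IntS4-labelled libraries. GstE6 was at 67.8, 66.1 and 65.4 CPM in IntS6-labelled, 96.5, 87 and 93.1 in mts and 71.1, 63.9 and 74.8 in Pp2A-29B libraries. No library of the 4 groups overlapped the controls, and the mts libraries were the highest. By edgeR, GstE6 differed from B-gal by 1.20 ± 0.11 for IntS4, 1.17 ± 0.11 for IntS6, 1.65 ± 0.11 for mts and 1.25 ± 0.11 for Pp2A-29B on the log2 scale, at adjusted p of 5.9e-08, 9.5e-08, 3.2e-09 and 1.6e-07.

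GstE9 and GstE12 were next by summed counts. GstE9 stood at 9.23, 14.1 and 15.8 CPM in Mock, 8.46, 9.54 and 14.8 in B-gal and 48.8, 56.4 and 40.4 in the IntS4-labelled libraries. GstE9 was at 57.7, 57.9 and 53.7 CPM in IntS6-labelled, 60.5, 63.2 and 55 in mts and 27.7, 28.4 and 29.9 in Pp2A-29B libraries. The IntS4-labelled, IntS6-labelled and mts libraries overlapped one another, and the Pp2A-29B libraries lay between them and the controls. For GstE9, edgeR gave log2 fold changes over B-gal of 2.14 ± 0.19 for IntS4, 2.36 ± 0.19 for IntS6, 2.44 ± 0.19 for mts and 1.38 ± 0.19 for Pp2A-29B (adjusted p 1.9e-08, 6.3e-09, 9.7e-09 and 1.3e-05). GstE9 overlaps imd on the other strand by 40 bases. GstE12 had 32.7, 27.3 and 24.8 CPM in Mock, 32.2, 25 and 26.1 in B-gal and 58.4, 54.4 and 48 in the IntS4-labelled libraries. GstE12 was at 69.1, 54.4 and 62.7 CPM in IntS6-labelled, 56.2, 54.1 and 43.1 in mts and 33.5, 34 and 38.6 in Pp2A-29B libraries. Its Pp2A-29B libraries were just above the controls. For GstE12, the log2 fold change over B-gal was 0.95 ± 0.13 for IntS4, 1.16 ± 0.13 for IntS6, 0.88 ± 0.13 for mts and 0.35 ± 0.13 for Pp2A-29B, with edgeR adjusted p of 9.6e-06, 8.9e-07, 2.5e-05 and 0.046 in the same order. The Pp2A-29B call of GstE12 was lost without the B-gal library of set B (adjusted p = 0.17) or C (0.13), and without the Pp2A-29B library of set A (0.062), B (0.065) or C (0.16).

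GstE8 and GstE7, which lie side by side, differed in where they were highest. GstE8 was at 6.84, 9.01 and 11.6 CPM in Mock, 6.62, 6.3 and 9.43 in B-gal and 16.5, 16.3 and 15.7 in the IntS4-labelled libraries. GstE8 was at 14.2, 15.4 and 12.2 CPM in IntS6-labelled, 25.5, 24.3 and 20.9 in mts and 17.3, 17.7 and 15.8 in Pp2A-29B libraries. The mts libraries were the highest for GstE8. GstE8 had log2 fold changes over B-gal of 1.11 ± 0.17 for IntS4, 0.90 ± 0.17 for IntS6, 1.66 ± 0.17 for mts and 1.18 ± 0.17 for Pp2A-29B, and the edgeR adjusted p were 2.7e-05, 0.00028, 2.9e-07 and 2.7e-05 in that order. GstE7 was measured at 2.07, 2.69 and 3.36 CPM in Mock, 1.57, 2.67 and 3.14 in B-gal and 11.8, 12.2 and 10.4 in the IntS4-labelled libraries. GstE7 was at 12.1, 9.76 and 10.2 CPM in IntS6-labelled, 8.24, 8.89 and 7.1 in mts and 4.94, 5.21 and 6.05 in Pp2A-29B libraries. The IntS4-labelled and IntS6-labelled libraries were the highest for GstE7. Against B-gal, GstE7 had log2 fold changes of 2.21 ± 0.20 for IntS4, 2.11 ± 0.20 for IntS6, 1.70 ± 0.20 for mts and 1.12 ± 0.21 for Pp2A-29B (edgeR adjusted p 2.6e-08, 5.9e-08, 1.6e-06 and 0.00031 in that order).

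GstE11 and GstE3 were low in the controls. GstE11 stood at 1.73, 1.72 and 1.65 CPM in Mock, 1.77, 1.87 and 1.89 in B-gal and 10.9, 13.2 and 12.5 in the IntS4-labelled libraries. GstE11 was at 14.8, 15.3 and 14.1 CPM in IntS6-labelled, 11.4, 11.6 and 12.2 in mts and 5.75, 5.73 and 6.18 in Pp2A-29B libraries. The IntS6-labelled libraries were the highest, above every IntS4-labelled library. By edgeR, GstE11 differed from B-gal by 2.72 ± 0.12 for IntS4, 2.99 ± 0.12 for IntS6, 2.66 ± 0.12 for mts and 1.67 ± 0.13 for Pp2A-29B on the log2 scale, at adjusted p of 1.4e-12, 5.6e-13, 1.8e-11 and 1.8e-08. GstE3 had 0.991, 1.26 and 0.672 CPM in Mock, 0.887, 0.454 and 0.445 in B-gal and 9.34, 10.0 and 7.28 in the IntS4-labelled libraries. GstE3 was at 8.58, 7.32 and 7.64 CPM in IntS6-labelled, 11.2, 9.46 and 4.98 in mts and 4.51, 4.35 and 5.57 in Pp2A-29B libraries. The Pp2A-29B libraries were low among the 4 groups and overlapped mts through its set C library. For GstE3, edgeR gave log2 fold changes over B-gal of 3.92 ± 0.32 for IntS4, 3.74 ± 0.32 for IntS6, 3.88 ± 0.32 for mts and 3.03 ± 0.34 for Pp2A-29B (adjusted p 7.6e-09, 1.9e-08, 2.3e-08 and 1.5e-06).

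GstE2 had at most 7 counts in a Mock or B-gal library and was highest in mts. GstE2 was at 0.0619, 0.274 and 0.428 CPM in Mock, 0.205, 0.341 and 0 in B-gal and 0.657, 0.657 and 1.38 in the IntS4-labelled libraries. GstE2 was at 1.46, 0.881 and 1.32 CPM in IntS6-labelled, 4.63, 6.77 and 6.59 in mts and 2.22, 2.7 and 4.4 in Pp2A-29B libraries. The B-gal library of set C held 0 counts, and no treated library overlapped the controls. For GstE2, the log2 fold change over B-gal was 2.26 ± 0.64 for IntS4, 2.72 ± 0.61 for IntS6, 5.00 ± 0.52 for mts and 4.05 ± 0.55 for Pp2A-29B, with edgeR adjusted p of 0.0073, 0.0012, 3.3e-07 and 1.2e-05 in the same order. Without the B-gal library of set B the log2 fold changes were 3.15, 3.62, 5.90 and 4.95, and without that of set C 1.65, 2.11, 4.39 and 3.44.

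GstE13 was the exception among the tested Epsilon genes. GstE13 was at 9.1, 9.92 and 13.4 CPM in Mock, 7.71, 7.95 and 15.2 in B-gal and 3.65, 4.85 and 4.98 in the IntS4-labelled libraries. GstE13 was at 6.89, 6.98 and 9.35 CPM in IntS6-labelled, 8.16, 9.6 and 10.1 in mts and 8.03, 6.52 and 8.74 in Pp2A-29B libraries. The IntS4-labelled libraries lay below all others, and the B-gal library of set C was the highest of all. GstE13 had log2 fold changes over B-gal of -1.19 ± 0.24 for IntS4, -0.42 ± 0.23 for IntS6, -0.16 ± 0.23 for mts and -0.41 ± 0.23 for Pp2A-29B, and the edgeR adjusted p were 0.00046, 0.15, 0.59 and 0.17 in that order. Sets pair the IntS6-labelled and B-gal libraries, and with the set as a block the IntS6 value of -0.39 passed (adjusted p = 0.046). GstE13 shares 6 bases with CG18659 on the other strand.

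Most genes of both classes sit in a pair of clusters, and neighbours within a cluster did not all change alike. All 11 Delta genes lie within 20.8 kb at 3R:12364776-12385624, of which 8 were tested, and 10 Epsilon genes lie within 13.2 kb at 2R:18396638-18409835, of which 6 were tested. GstD1 (3R:12367817-12369268, minus strand, 2 exon blocks) lies next to GstD9 (3R:12366163-12367564), which also rose in all 4 groups. GstD6 (3R:12377128-12377907, 1 exon) fell in mts and Pp2A-29B while its neighbour GstD5 (3R:12375733-12376572) rose in both. The GstD6 call in Pp2A-29B was lost without any 1 of the 6 libraries compared. The GstD5 call there was lost without the whole of set A (edgeR adjusted p = 0.098). The 6 tested genes of the Epsilon cluster, GstE2, GstE3, GstE6, GstE7, GstE8 and GstE9, rose in all 4 groups. Of these, GstE2 passed the filter only through libraries in which it was high. Between GstE3 and GstE6, GstE4 and GstE5 were nearly uncounted, with 4 and 14 reads over the 18 libraries. GstE11, GstE12, GstE13 and GstE14 lie elsewhere on 2R.

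**Figure D3:**
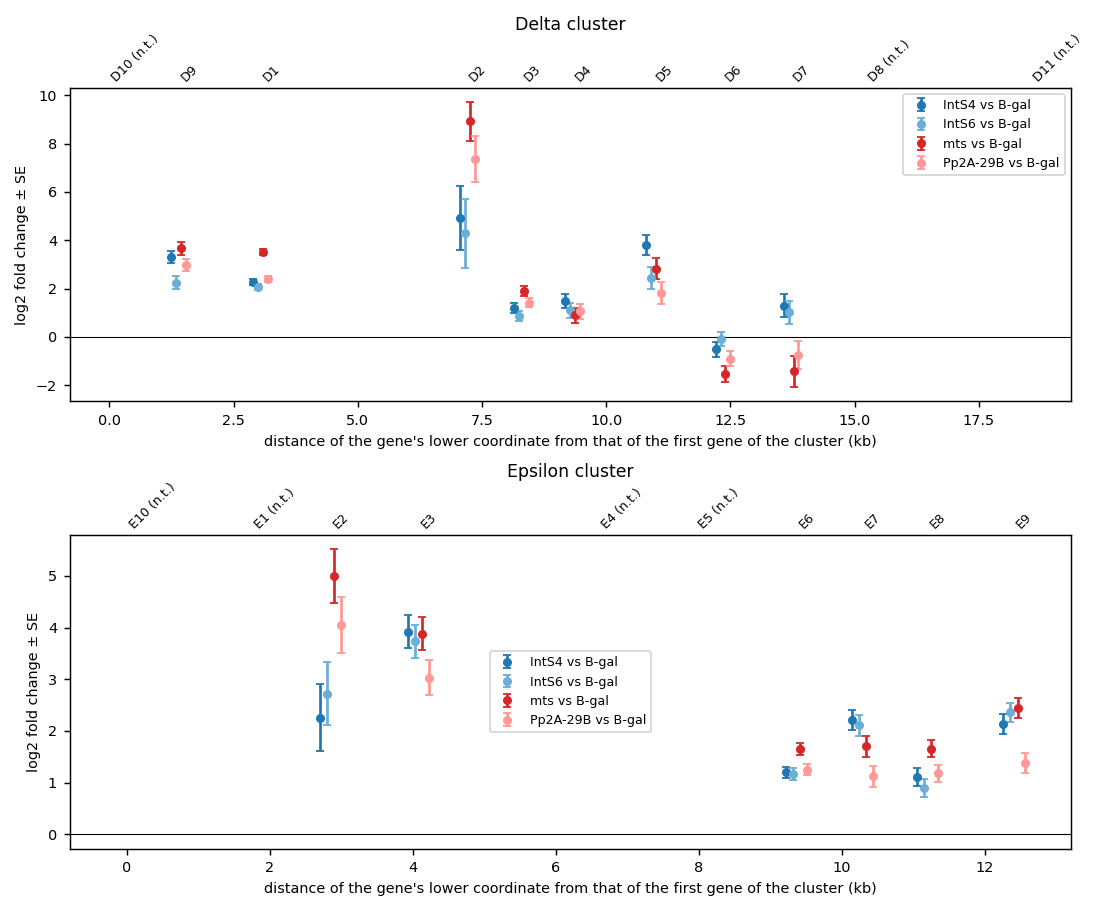
edgeR log2 fold change over B-gal (vertical axis) of the genes in the Delta and Epsilon clusters against distance in kb from the start of the first gene of the cluster, for the 4 groups (bars ± SE), with genes that were not tested marked n.t. The tested Epsilon genes are above 0 in every group, while the Delta cluster holds values from -1.54 (GstD6 in mts) to 8.92 (GstD2 in mts, which depends on the prior count because B-gal holds 0 counts).

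The Omega class split. Omega enzymes carry a cysteine in the active site and reduce mixed disulphides, and a further member, se, was not caught by the name rule. GstO3 was at 9.54, 15.9 and 13.6 CPM in Mock, 9.55, 12.5 and 10.9 in B-gal and 55.3, 60.9 and 56.6 in the IntS4-labelled libraries. GstO3 was at 46.7, 47.6 and 43.6 CPM in IntS6-labelled, 54.8, 49.3 and 44.9 in mts and 41.3, 38.7 and 41.3 in Pp2A-29B libraries. The 4 treated groups lay above the controls and close to one another. Against B-gal, GstO3 had log2 fold changes of 2.39 ± 0.14 for IntS4, 2.06 ± 0.14 for IntS6, 2.18 ± 0.14 for mts and 1.88 ± 0.14 for Pp2A-29B (edgeR adjusted p 8.2e-11, 7.6e-10, 1.5e-09 and 1.6e-08 in that order). GstO2 had 11.6, 10.8 and 8.92 CPM in Mock, 10.8, 7.66 and 7.07 in B-gal and 61.9, 64.9 and 55.7 in the IntS4-labelled libraries. GstO2 was at 48.9, 34.6 and 55.8 CPM in IntS6-labelled, 17.5, 21 and 15.2 in mts and 13.8, 14.3 and 15.3 in Pp2A-29B libraries. The IntS4-labelled and IntS6-labelled libraries were the highest, well above the mts and Pp2A-29B libraries, which in turn were above the controls. By edgeR, GstO2 differed from B-gal by 2.85 ± 0.18 for IntS4, 2.46 ± 0.18 for IntS6, 1.08 ± 0.18 for mts and 0.77 ± 0.18 for Pp2A-29B on the log2 scale, at adjusted p of 1.9e-10, 1.7e-09, 7.1e-05 and 0.0024.

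GstO1, which lies beside them on 3L (3L:8523742-8524866), was lower than B-gal in all 4 fits and passed in 3. GstO1 was at 2.48, 2.85 and 3.55 CPM in Mock, 3.14, 4.77 and 4.4 in B-gal and 2.7, 2.68 and 3.41 in the IntS4-labelled libraries. GstO1 was at 2.3, 2.44 and 2.5 CPM in IntS6-labelled, 1.61, 1.76 and 2.11 in mts and 2.53, 2.77 and 1.81 in Pp2A-29B libraries. The Mock libraries were the lower of the 2 control groups and overlapped every treated group except mts. For GstO1, edgeR gave log2 fold changes over B-gal of -0.49 ± 0.20 for IntS4, -0.77 ± 0.21 for IntS6, -1.18 ± 0.22 for mts and -0.80 ± 0.21 for Pp2A-29B (adjusted p 0.055, 0.0052, 0.00021 and 0.0055). Sets pair the IntS4-labelled and B-gal libraries, and with the set as a block the IntS4 value of -0.49 passed (adjusted p = 0.042). It also passed without the B-gal library of set A (log2 fold change -0.65, adjusted p = 0.017) or the IntS4-labelled library of set C (-0.62, 0.04). GstO1 in the 4 treated groups was not tested against Mock.

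GstS1, the Sigma enzyme, conjugates the lipid peroxidation product hydroxynonenal and is abundant in flight muscle. It lies at 2R:17093246-17099501. GstS1 was measured at 6.38, 6.6 and 4.46 CPM in Mock, 6.96, 6.76 and 6.62 in B-gal and 43.7, 50.2 and 45.6 in the IntS4-labelled libraries. GstS1 was at 25.8, 23.5 and 19.2 CPM in IntS6-labelled, 14.4, 12.8 and 8.7 in mts and 17.1, 20.1 and 14.9 in Pp2A-29B libraries. The IntS4-labelled libraries were the highest, the IntS6-labelled ones next, and the mts libraries were the lowest of the treated groups while still above the controls. For GstS1, the log2 fold change over B-gal was 2.78 ± 0.18 for IntS4, 1.75 ± 0.17 for IntS6, 0.83 ± 0.18 for mts and 1.36 ± 0.18 for Pp2A-29B, with edgeR adjusted p of 1.9e-10, 1.4e-07, 0.00085 and 8.7e-06 in the same order. The muscle markers Mhc, Mlc2 and Act88F summed to 0.341 to 0.39 CPM in B-gal, 2.69 to 4.52 in IntS4-labelled, 1.68 to 2.27 in IntS6-labelled, 0.494 to 0.845 in mts and 0.741 to 1.52 in Pp2A-29B libraries, and their part in the GstS1 result was not tested.

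The Theta genes took different courses. GstT3 was at 2.6, 5.21 and 2.63 CPM in Mock, 1.84, 3.29 and 3.17 in B-gal and 8.1, 8.26 and 11.2 in the IntS4-labelled libraries. GstT3 was at 14.1, 12.5 and 17.6 CPM in IntS6-labelled, 5.08, 5.08 and 4.65 in mts and 6.49, 6.19 and 4.92 in Pp2A-29B libraries. The IntS6-labelled libraries were the highest. GstT3 had log2 fold changes over B-gal of 1.71 ± 0.25 for IntS4, 2.39 ± 0.25 for IntS6, 0.82 ± 0.27 for mts and 1.07 ± 0.26 for Pp2A-29B, and the edgeR adjusted p were 1.5e-05, 2.1e-07, 0.015 and 0.003 in that order. The mts call of GstT3 was lost without the B-gal library of set A (adjusted p = 0.073). GstT4 had 7.24, 5.32 and 7.21 CPM in Mock, 6.07, 5.56 and 7.18 in B-gal and 5.76, 3.79 and 5.7 in the IntS4-labelled libraries. GstT4 was at 6.33, 4.13 and 6.19 CPM in IntS6-labelled, 1.29, 1.2 and 1.6 in mts and 1.85, 1.52 and 2.91 in Pp2A-29B libraries. The mts and Pp2A-29B libraries lay below every other library, whereas the Integrator-labelled libraries overlapped the controls. Against B-gal, GstT4 had log2 fold changes of -0.32 ± 0.22 for IntS4, -0.17 ± 0.22 for IntS6, -2.21 ± 0.27 for mts and -1.58 ± 0.24 for Pp2A-29B (edgeR adjusted p 0.26, 0.56, 1.9e-06 and 5.3e-05 in that order).

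GstT1 and GstT2 are neighbours on 2R. GstT1 stood at 12.8, 12.5 and 17.1 CPM in Mock, 11.7, 11.2 and 13 in B-gal and 24.9, 22.1 and 18.3 in the IntS4-labelled libraries. GstT1 was at 15.5, 13.2 and 16.9 CPM in IntS6-labelled, 16.2, 19.3 and 15.4 in mts and 12.8, 12.4 and 13.2 in Pp2A-29B libraries. Its IntS4-labelled libraries were the highest on average and overlapped mts. By edgeR, GstT1 differed from B-gal by 0.86 ± 0.14 for IntS4, 0.34 ± 0.14 for IntS6, 0.50 ± 0.14 for mts and 0.09 ± 0.15 for Pp2A-29B on the log2 scale, at adjusted p of 5.9e-05, 0.063, 0.0073 and 0.67. The IntS6 value passed without the IntS6-labelled library of set B (log2 fold change 0.43, adjusted p = 0.032). GstT2 was at 4.71, 5.04 and 5.81 CPM in Mock, 5.87, 4.94 and 5.12 in B-gal and 5.47, 5.36 and 6.52 in the IntS4-labelled libraries. GstT2 was at 5.49, 5.76 and 5 CPM in IntS6-labelled, 6.3, 6.35 and 7.69 in mts and 5.65, 6.36 and 6.31 in Pp2A-29B libraries. All groups overlapped B-gal except mts. For GstT2, edgeR gave log2 fold changes over B-gal of 0.13 ± 0.14 for IntS4, 0.03 ± 0.14 for IntS6, 0.35 ± 0.14 for mts and 0.21 ± 0.14 for Pp2A-29B (adjusted p 0.48, 0.87, 0.042 and 0.26). The mts call of GstT2 was lost without the B-gal library of set B (adjusted p = 0.13) or C (0.11) or the mts library of set C (0.18), and also with DESeq2 (0.063). GstT2 shares 223 bases with CG12926 on the other strand, an entry with 31 reads in all.

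GstZ1 encodes maleylacetoacetate isomerase, a step of tyrosine breakdown, and passed in none of the 9 comparisons in the edgeR fit of all groups. GstZ1 had 1.98, 2.52 and 1.96 CPM in Mock, 1.84, 2.44 and 2.11 in B-gal and 1.97, 3.03 and 1.57 in the IntS4-labelled libraries. GstZ1 was at 2.91, 2.03 and 1.71 CPM in IntS6-labelled, 3.41, 2.96 and 3.21 in mts and 2.97, 2.83 and 1.81 in Pp2A-29B libraries. The mts libraries were above all B-gal libraries and the other groups overlapped them. For GstZ1, the log2 fold change over B-gal was 0.06 ± 0.27 for IntS4, 0.06 ± 0.27 for IntS6, 0.58 ± 0.26 for mts and 0.25 ± 0.26 for Pp2A-29B, with edgeR adjusted p of 0.88, 0.87, 0.073 and 0.5 in the same order. An unadjusted p under 0.05 was found in 1 of the 4 comparisons with B-gal. In mts it passed when only the 2 groups were fitted (0.60, adjusted p = 0.042) and, although sets do not pair these groups, with the set as a block (0.57, 0.049). It also passed as higher in mts than in IntS6-labelled libraries without the IntS6-labelled library of set A (0.77, 0.038), and than in IntS4-labelled libraries without the IntS4-labelled library of set B (0.85, 0.018).

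The 9 genes that did not pass the filter were GstD8, GstD10, GstD11, GstE1, GstE4, GstE5, GstE10, GstE14 and GstZ2. GstD11 had 0 counts in all 18 libraries, which allows a level of up to 0.0105 CPM over all of them. GstE10 had 2 counts in all, GstE4 had 4, GstE14 (Noppera-bo, needed for ecdysteroid synthesis) had 6, GstE1 had 10, GstE5 had 14, GstZ2 had 15 and GstD8 had 19. GstD10 had 48 counts and was the highest of them, with 0 in B-gal and 25.5 in Pp2A-29B (levels 0.525, 0.395 and 0.712 CPM). Its ratio to 3 counts over B-gal was 9.12 in Pp2A-29B, 2.82 in mts, 2.75 in IntS4-labelled and 1.58 in IntS6-labelled libraries. Those groups held 25.5, 7, 8 and 4.5 counts in that order. GstE1 and GstE10 overlap by 127 bases on opposite strands. None of these 9 genes was tested. Intervals cover counting error only, and ratios to 3 counts cover only that of the group with 0 counts.

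Setting the groups directly against each other showed where they differed. GstD1 was higher in mts than in IntS6-labelled libraries (1.47 ± 0.11 on the log2 scale, edgeR adjusted p = 6.2e-09) and than in IntS4-labelled libraries (1.25 ± 0.11, 3.9e-08), with no overlap. Of the 26 tested genes, 7 were higher and 7 lower in mts than in IntS6-labelled libraries, where 22.0% and 28.4% of all tested genes were. Against the IntS4-labelled libraries 7 were higher and 10 lower, with 22.4% and 30.0% of all tested genes. The median log2 difference of the 26 genes was 0.12 and -0.06, and that of all tested genes -0.06 and -0.07. In percent, 26.9% were higher in each comparison, and 26.9% and 38.5% were lower, so both shares lie near those of all genes. Without GstD2, GstD7 and GstE2, 5 of the other 23 were higher and 6 lower than in IntS6-labelled libraries, against 23.1% and 25.5% of the 7802 genes that passed on the controls alone. Against IntS4-labelled libraries 5 were higher and 9 lower, with 23.5% and 27.1% of those genes.

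Delta and Epsilon hold 8 and 9 of the 26 tested genes. Of the Delta genes, 4 were higher and 2 lower in mts than in IntS6-labelled libraries, and 3 and 3 than in IntS4-labelled ones. Of the Epsilon genes, 3 were higher and 1 lower than in IntS6-labelled libraries, and 4 and 1 than in IntS4-labelled ones. The share of all tested genes higher in both comparisons is not given here. All members higher in mts in both comparisons were of these classes. They were GstD1, GstD2, GstD3, GstE2, GstE6 and GstE8, for which the log2 differences from the IntS6-labelled libraries were 1.47, 4.62, 1.04, 2.28, 0.47 and 0.76, and from the IntS4-labelled libraries 1.25, 4.01, 0.71, 2.74, 0.44 and 0.55. Without the IntS4-labelled library of set A the GstD2 difference was 4.66. Both GstD2 and GstE2 passed the filter only through libraries in which they were high. GstD9 was higher in mts than in IntS6-labelled libraries (1.42 ± 0.22, edgeR adjusted p = 2.6e-05) and did not pass against IntS4-labelled ones (0.37 ± 0.21, 0.14). GstE13 was higher in mts than in IntS4-labelled libraries (1.03 ± 0.25, edgeR adjusted p = 0.0018).

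The genes lower in mts than in both Integrator-labelled groups were GstD6, GstD7, GstO2, GstS1, GstT3 and GstT4. GstO2 differed by -1.37 ± 0.17 from the IntS6-labelled and by -1.76 ± 0.17 from the IntS4-labelled libraries (edgeR adjusted p = 2e-06 and 8.3e-08). GstS1 differed by -0.92 ± 0.17 and -1.95 ± 0.17 (adjusted p = 0.00018 and 2e-08), and GstT3 by -1.57 ± 0.23 and -0.89 ± 0.24 (2e-05 and 0.0043). These 3 genes were nonetheless above B-gal in mts. GstT4 differed by -2.04 ± 0.27 and -1.89 ± 0.27 (edgeR adjusted p = 5.1e-06 and 1.3e-05), with no overlap between the groups. The values of GstD7 were -2.44 and -2.72, and became -1.79 and -2.07 without the mts library of set A and -3.51 and -3.80 without that of set C. GstD6 had -1.46 and -1.03, and the second call was lost without the IntS4-labelled library of set A (adjusted p = 0.081) or the mts library of set B (0.14).

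Smaller differences completed these comparisons. GstE11 was lower in mts than in IntS6-labelled libraries (-0.32 ± 0.10, edgeR adjusted p = 0.013), a call lost with no filter on low counts (-0.25, 0.23) and without the whole of set A or B (0.12 and 0.16). Against the IntS4-labelled libraries GstD5 (-0.95), GstE7 (-0.50), GstO1 (-0.69) and GstT1 (-0.36) were lower in mts. Each of these 4 calls was lost without some single library. For GstD5 these were the IntS4-labelled libraries of sets A and C (adjusted p = 0.086 and 0.055) and the mts libraries of sets A and B (0.13 each), while without the mts library of set C it was -1.58. For GstE7 they were the IntS4-labelled libraries of sets A and B (0.059 and 0.077) and the mts libraries of sets A and C (0.053 and 0.085). For GstO1 they were the IntS4-labelled library of set C (0.074) and the mts libraries of sets A and B (0.074 and 0.051). For GstT1 they were the IntS4-labelled libraries of sets A and B (0.18 and 0.089) and the mts libraries of sets A and C (0.12 and 0.14), and the call was also lost with DESeq2 (0.06), RLE factors (0.056), totals without ribosomal RNA (0.088), no filter (0.15) and a fit of the 2 groups alone (0.1).

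Between the 2 PP2A groups, 8 of the 26 genes were lower in Pp2A-29B than in mts and 0 were higher, where 4.94% of all tested genes were lower and 4.81% higher. Among the 23 that passed on the controls alone, 7 were lower and 0 higher, with 5.18% and 4.81% of such genes. Of the 26, 16 had an unadjusted p under 0.05 in either direction, and DESeq2 called 1 gene higher. The lower genes were GstD1, GstD2, GstD9, GstE3, GstE6, GstE9, GstE11 and GstE12. GstD1 differed by -1.15 ± 0.11 (edgeR adjusted p = 9.9e-06), GstE9 by -1.05 ± 0.18 (0.0013) and GstE11 by -1.0 ± 0.11 (2.5e-05), and these 3 held without any single library. The GstE9 call was lost without the whole of set A or B (adjusted p = 0.063 and 0.08). GstE12 differed by -0.53 (adjusted p = 0.018), GstE6 by -0.40 (0.029), GstE3 by -0.85 (0.034), GstD9 by -0.68 (0.047) and GstD2 by -1.53 (0.015). Each of these 5 was lost on leaving out some single libraries.

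GstE12 was lost without the mts libraries of set A or B (adjusted p = 0.088 and 0.056) or the Pp2A-29B libraries of set A or B (0.088 and 0.079). GstE6 was lost without those of mts sets A or C (0.11 and 0.075) or Pp2A-29B sets A or B (0.092 and 0.14), and GstE3 without mts A or B (0.19 and 0.095) or Pp2A-29B A or B (0.12 and 0.13). GstD2 was lost without mts A or C (0.053 and 0.063) or Pp2A-29B A or B (0.09 and 0.083). GstD9 was lost without mts A or C (0.086 and 0.22), or without Pp2A-29B A, B or C (0.12, 0.16 and 0.059). Sets pair the mts and Pp2A-29B libraries, and with the set as a block GstD5 (-0.96, adjusted p = 0.017), GstE2 (-0.97, 0.031), GstE7 (-0.58, 0.035) and GstE8 (-0.48, 0.04) also passed as lower in Pp2A-29B, and GstS1 as higher (0.53, 0.0072). Without the Pp2A-29B library of set C, GstD3 (-0.62, adjusted p = 0.05), GstE2 (-1.28, 0.04) and GstE7 (-0.68, 0.045) passed too.

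Between the Integrator-labelled groups, 4 of the 26 genes were lower in IntS6-labelled than in IntS4-labelled libraries and 0 were higher by edgeR, where 4.01% of all tested genes were lower and 2.53% higher. All 4 are among the 23 that passed on the controls alone, where 2.74% of genes were lower and 2.19% higher. Of the 26, 9 had an unadjusted p under 0.05, and DESeq2 called 1 gene higher. GstS1 differed by -1.03 ± 0.16 on the log2 scale (edgeR adjusted p = 0.0003), GstD9 by -1.05 ± 0.22 (0.0042), GstD5 by -1.33 ± 0.34 (0.022) and GstT1 by -0.52 ± 0.14 (0.03). The GstD5 call was lost without the IntS4-labelled library of set A or C (adjusted p = 0.1 and 0.053) or the IntS6-labelled library of set A or B (0.085 and 0.091). The GstT1 call was lost without the IntS4-labelled library of set A or B (0.17 and 0.099) or the IntS6-labelled library of set A or B (0.08 and 0.15). The GstD9 call held without any single library and was lost without the whole of set A (-1.09, 0.13). GstE11 had 0.27 ± 0.10 (edgeR adjusted p = 0.14) with no overlap between the groups.

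**Figure D4:**
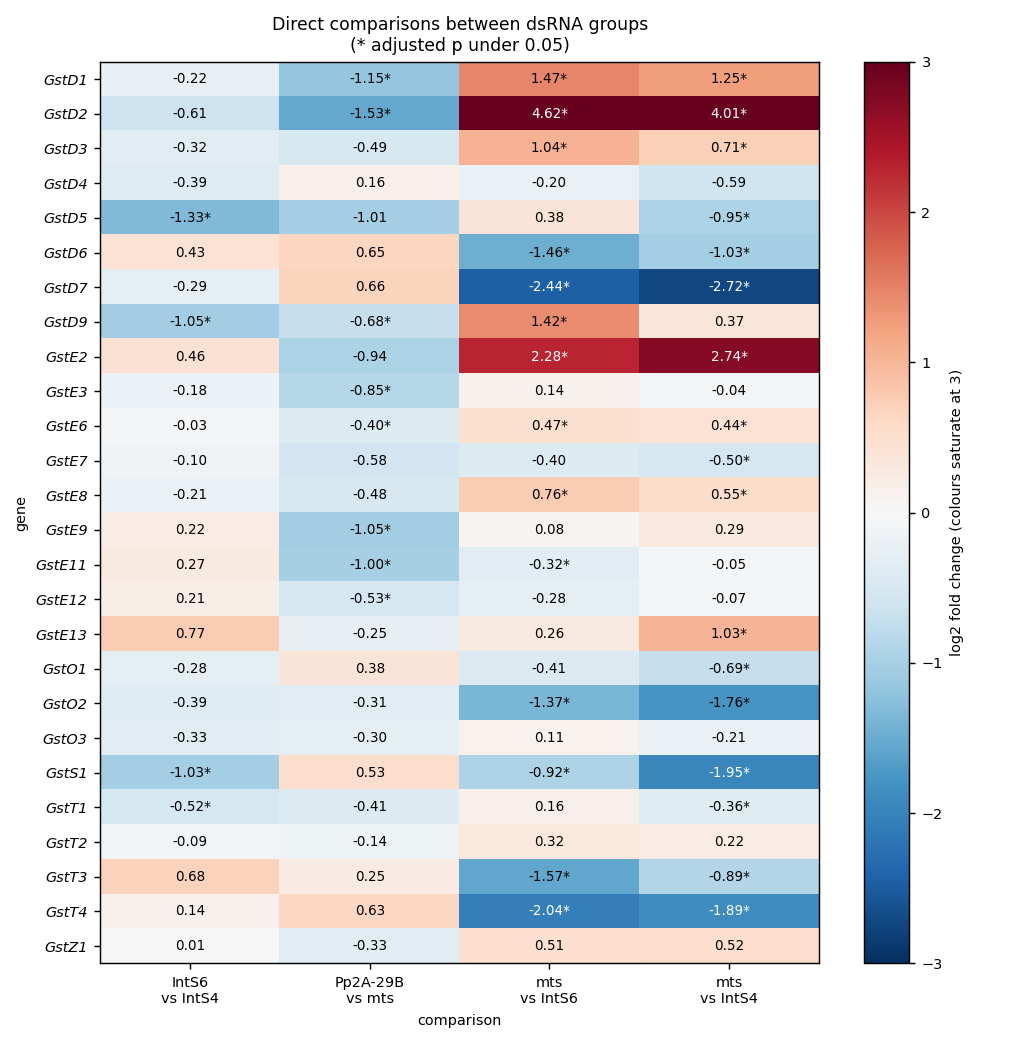
Heat map of edgeR log2 differences (colour) for the 26 tested genes (rows) in the comparisons between dsRNA groups (columns), with 3 libraries per group. The rows GstD1, GstD2, GstD3, GstE2, GstE6 and GstE8 are higher in mts than in both Integrator-labelled groups, and GstD6, GstD7, GstO2, GstS1, GstT3 and GstT4 are lower.

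Other genes of glutathione biology were taken from 7 lists, of which 38 genes were tested. Against B-gal, 21 rose and 5 fell in IntS4-labelled, 21 and 6 in IntS6-labelled, 23 and 3 in mts and 17 and 1 in Pp2A-29B libraries, and 0 changed between B-gal and Mock by edgeR. Of all tested genes, 27.0% rose and 20.2% fell in IntS4-labelled, 26.4% and 19.3% in IntS6-labelled, 26.6% and 24.8% in mts and 21.0% and 17.8% in Pp2A-29B libraries. The median log2 fold change of the 38 was 0.68, 0.58, 0.50 and 0.34 in that order. TrxT, Prx6b, Sod3 and Mrp5, which are among the 38, held only 2 or 3 counts over the B-gal libraries. Their passing the filter thus depended on other groups. The lists were not counted again with a filter on the Mock and B-gal libraries alone. All 4 genes of glutathione synthesis rose in both Integrator-labelled groups, 3 in mts and 1 in Pp2A-29B. Gclc, the catalytic subunit of glutamate-cysteine ligase, had 22.3 ± 3.97 CPM in B-gal, 64.9 ± 2.64 in IntS4-labelled, 60.3 ± 1.85 in IntS6-labelled, 65 ± 13.7 in mts and 38.9 ± 6.06 in Pp2A-29B libraries (mean ± SD, n = 3). It rose in all 4 groups. Gclc had log2 fold changes over B-gal of 1.54 ± 0.17 for IntS4, 1.43 ± 0.17 for IntS6, 1.54 ± 0.17 for mts and 0.80 ± 0.17 for Pp2A-29B, and the edgeR adjusted p were 5.7e-07, 1.6e-06, 8.2e-07 and 0.0012 in that order. Gclm, the modifier subunit, had log2 fold changes of 1.18 ± 0.17 for IntS4, 1.06 ± 0.17 for IntS6, 0.49 ± 0.18 for mts and 0.42 ± 0.17 for Pp2A-29B (edgeR adjusted p 1.3e-05, 4.9e-05, 0.027 and 0.062). In Pp2A-29B it passed with DESeq2 (adjusted p = 0.046), RLE factors (0.049), totals without ribosomal RNA (0.041) or no filter (0.043), and without B-gal A (0.041) or Pp2A-29B B (0.044). Gss1 and Gss2, glutathione synthases, rose by 1.13 and 1.02 in IntS4-labelled libraries, and had 0.33 and 0.06 in mts (adjusted p = 0.026 and 0.78). The mts calls of Gclm and Gss1 were each lost on leaving out single libraries, namely B-gal C and mts A or C for Gclm (adjusted p = 0.14, 0.091 and 0.057) and B-gal A or C and mts A or B for Gss1 (0.076, 0.064, 0.09 and 0.062). Gclc was lower in Pp2A-29B than in mts (-0.74 ± 0.17, adjusted p = 0.011).

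**Figure D5:**
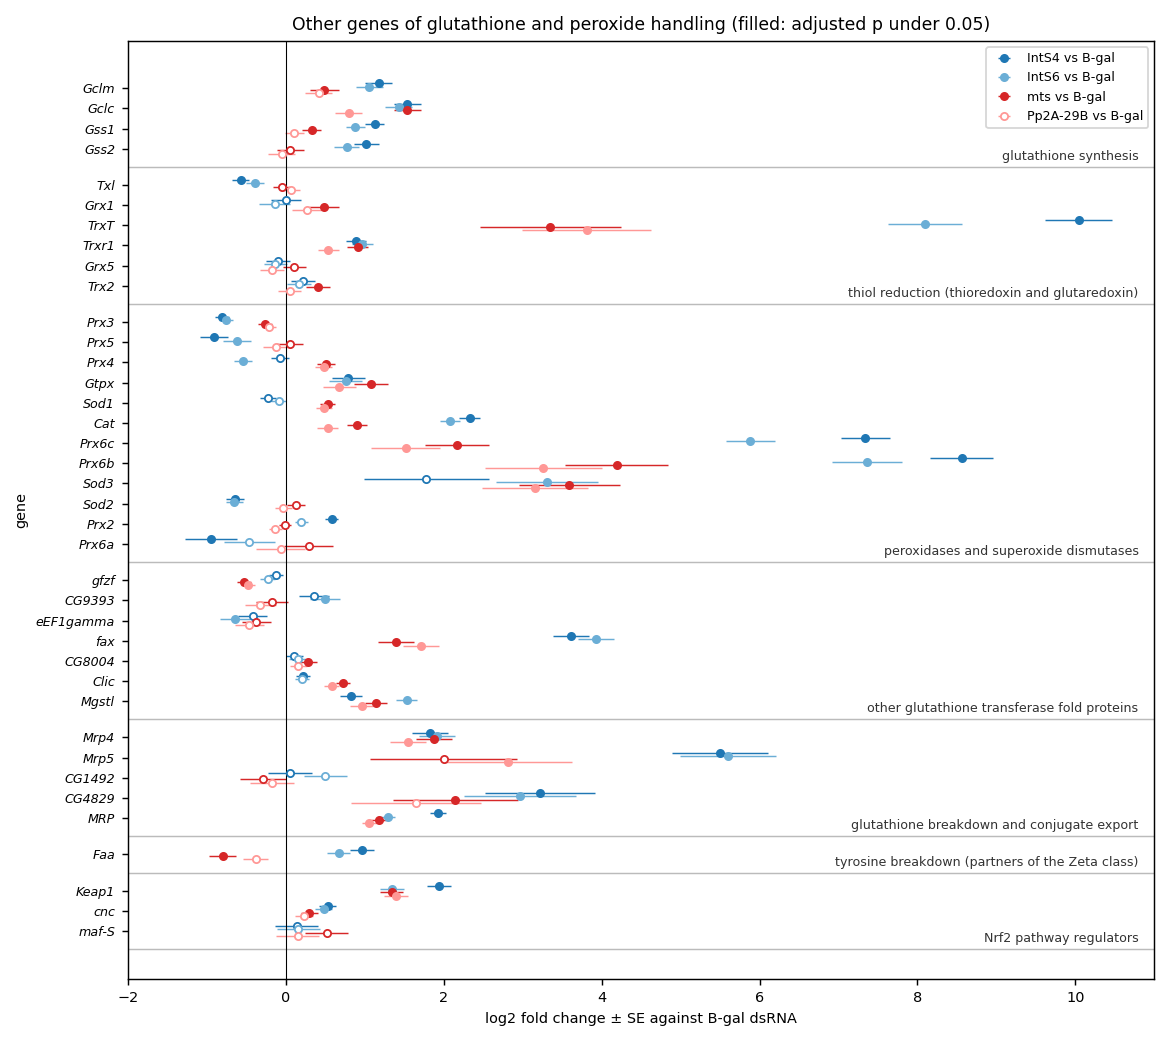
edgeR log2 fold change over B-gal (horizontal axis, with SE) of 38 other glutathione genes in the 4 dsRNA groups, ordered by list and filled where the adjusted p is under 0.05. The fitted values of TrxT, Prx6b, Sod3 and Mrp5 depend on the prior count, since their B-gal libraries hold 2 or 3 counts. Gclc, Trxr1, Gtpx, Cat, Mrp4, MRP and Keap1 are above 0 in all 4 groups, whereas Txl is lower in the Integrator-labelled groups and Faa is higher there and lower in mts.

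Of 6 tested thiol reduction genes, 2 rose and 1 fell in each Integrator-labelled group, 4 rose and 0 fell in mts, and 2 rose and 0 fell in Pp2A-29B. In all tested genes 27.0% rose and 20.2% fell in IntS4-labelled and 26.4% and 19.3% in IntS6-labelled libraries. The shares were 26.6% and 24.8% in mts and 21.0% and 17.8% in Pp2A-29B libraries. The counts in the Integrator-labelled and Pp2A-29B groups lie near these shares. Trxr1, the thioredoxin reductase that flies use in place of a glutathione reductase, had 82.3 ± 14.4 CPM in B-gal, 152 ± 8.98 in IntS4-labelled, 161 ± 26.6 in IntS6-labelled, 154 ± 9.21 in mts and 119.6 ± 12.2 in Pp2A-29B libraries (mean ± SD, n = 3). Against B-gal, Trxr1 had log2 fold changes of 0.89 ± 0.13 for IntS4, 0.97 ± 0.13 for IntS6, 0.91 ± 0.13 for mts and 0.54 ± 0.13 for Pp2A-29B (edgeR adjusted p 1.4e-05, 5.8e-06, 1.2e-05 and 0.0027 in that order). TrxT, a testis-specific thioredoxin, had 0.0455 ± 0.0788 CPM in B-gal, 50.4 ± 10.7 in IntS4-labelled, 13.1 ± 2.02 in IntS6-labelled, 0.457 ± 0.328 in mts and 0.66 ± 0.184 in Pp2A-29B libraries. Its B-gal libraries held 2 counts, so the ratio of its counts, scaled to library size, is given with a 95% exact counting interval. That ratio was 1271 (351 to 10500.0) in IntS4-labelled, 329.6 (90.9 to 2727) in IntS6-labelled, 12.1 (2.94 to 107) in mts and 16.6 (4.23 to 143) in Pp2A-29B libraries (edgeR adjusted p 6.4e-13, 8.1e-11, 0.0044 and 0.0012). Without the mts library of set A the TrxT adjusted p in mts was 0.055, and without the B-gal library of set A, which holds both counts, no ratio can be given. Txl, a thioredoxin-like protein, fell by 0.57 and 0.39 on the log2 scale in the Integrator-labelled groups (edgeR adjusted p = 0.0004 and 0.008), the second lost without the IntS6-labelled library of set C (0.05). Grx1, a glutaredoxin, was higher in mts (0.49 ± 0.19, adjusted p = 0.038), a call lost without B-gal A or C or mts B or C (0.098, 0.14, 0.11 and 0.07).

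Of 12 tested peroxidases and superoxide dismutases, 5 rose and 4 fell in each Integrator-labelled group, 7 rose and 1 fell in mts, and 7 rose in Pp2A-29B. Among all tested genes 27.0% rose and 20.2% fell in IntS4-labelled, 26.4% and 19.3% in IntS6-labelled, 26.6% and 24.8% in mts and 21.0% and 17.8% in Pp2A-29B libraries. The 12 include Prx6b and Sod3, with 2 and 3 counts in B-gal. In the Integrator-labelled groups genes of this list changed in both directions, as all tested genes did. The median log2 fold changes of the list were 0.25 and 0.05 there. Cat, the catalase that breaks down hydrogen peroxide, had 29.2 ± 2.98 CPM in B-gal, 147 ± 20.3 in IntS4-labelled, 124 ± 4.06 in IntS6-labelled, 54.4 ± 9.08 in mts and 42.1 ± 2.4 in Pp2A-29B libraries (mean ± SD, n = 3). By edgeR, Cat differed from B-gal by 2.33 ± 0.13 for IntS4, 2.08 ± 0.13 for IntS6, 0.90 ± 0.13 for mts and 0.53 ± 0.13 for Pp2A-29B on the log2 scale, at adjusted p of 4.8e-11, 2.7e-10, 1.6e-05 and 0.0035. Prx6c, a peroxiredoxin, had 0.518 ± 0.11 CPM in B-gal, 84.9 ± 1.83 in IntS4-labelled, 30.9 ± 7.5 in IntS6-labelled, 2.41 ± 1.14 in mts and 1.5 ± 0.331 in Pp2A-29B libraries. For Prx6c, edgeR gave log2 fold changes over B-gal of 7.34 ± 0.31 for IntS4, 5.88 ± 0.31 for IntS6, 2.17 ± 0.41 for mts and 1.52 ± 0.44 for Pp2A-29B (adjusted p 6.3e-13, 2.5e-11, 0.00024 and 0.01). Prx6b held 2 counts in B-gal, and its ratio to B-gal was 446 (123 to 3691) in IntS4-labelled, 195 (53.8 to 1621) in IntS6-labelled, 21.8 (5.6 to 186) in mts and 10.7 (2.61 to 94.7) in Pp2A-29B libraries (edgeR adjusted p 3.3e-12, 1.1e-10, 3.5e-05 and 0.0019). Sod3, an extracellular superoxide dismutase, held 3 counts in B-gal, and its ratio was 3.78 (0.998 to 21.1) in IntS4-labelled, 11.2 (3.51 to 57.2) in IntS6-labelled, 13.7 (4.31 to 69.7) in mts and 10.0 (3.09 to 51.5) in Pp2A-29B libraries (edgeR adjusted p 0.076, 0.00052, 0.0002 and 0.0013). With the set as a block, its IntS4 value passed (adjusted p = 0.048).

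Of 7 tested genes listed as other glutathione transferases or proteins of related fold, 3, 3, 4 and 3 rose in IntS4-labelled, IntS6-labelled, mts and Pp2A-29B libraries. In that order 0, 1, 1 and 1 fell. The shares of all tested genes were 27.0%, 26.4%, 26.6% and 21.0% rising and 20.2%, 19.3%, 24.8% and 17.8% falling. Both fax and Mgstl rose in all 4 groups. Mgstl, a membrane-bound glutathione transferase, had 8.16 ± 1.64 CPM in B-gal, 14.4 ± 0.598 in IntS4-labelled, 23.5 ± 1.64 in IntS6-labelled, 17.9 ± 1.41 in mts and 15.8 ± 1.43 in Pp2A-29B libraries (mean ± SD, n = 3). For Mgstl, the log2 fold change over B-gal was 0.83 ± 0.14 for IntS4, 1.53 ± 0.13 for IntS6, 1.14 ± 0.14 for mts and 0.96 ± 0.14 for Pp2A-29B, with edgeR adjusted p of 5.4e-05, 2.4e-08, 1.6e-06 and 2.2e-05 in the same order. The values of fax were 3.61 ± 0.23 for IntS4, 3.93 ± 0.23 for IntS6, 1.40 ± 0.23 for mts and 1.71 ± 0.23 for Pp2A-29B (edgeR adjusted p 2e-10, 8.7e-11, 5.6e-05 and 1e-05). Clic, of the chloride intracellular channel family, rose by 0.73 in mts and 0.58 in Pp2A-29B libraries (adjusted p = 1.9e-06 and 4.5e-05), and passed in IntS4-labelled libraries (0.22 ± 0.09, 0.05) only while all of B-gal A, B and C and IntS4-labelled A and B were kept (0.12, 0.075, 0.11, 0.11 and 0.18 without each). The translation elongation factor subunit eEF1gamma was lower in IntS6-labelled libraries (-0.64 ± 0.19, 0.0081), and had -0.42 in IntS4-labelled, -0.37 in mts and -0.46 in Pp2A-29B libraries (edgeR adjusted p = 0.074, 0.1 and 0.058). These 3 passed without the B-gal library of set C (adjusted p = 0.02, 0.029 and 0.018), and the IntS4 value passed with the set as a block (-0.41, 0.00036). Of 5 tested genes of glutathione breakdown and conjugate export, 4 rose in each Integrator-labelled group, 3 in mts and 3 in Pp2A-29B, and 0 fell. Among conjugate exporters, MRP had 127 ± 10.5 CPM in B-gal, 486 ± 28.4 in IntS4-labelled, 312 ± 21 in IntS6-labelled, 289 ± 33.9 in mts and 265 ± 0.47 in Pp2A-29B libraries. MRP had log2 fold changes over B-gal of 1.93 ± 0.10 for IntS4, 1.29 ± 0.10 for IntS6, 1.18 ± 0.10 for mts and 1.06 ± 0.10 for Pp2A-29B, and the edgeR adjusted p were 8.4e-12, 2.5e-09, 1.8e-08 and 1.4e-07 in that order. Mrp4 had 1.83 ± 0.23 for IntS4, 1.92 ± 0.23 for IntS6, 1.88 ± 0.23 for mts and 1.55 ± 0.23 for Pp2A-29B (edgeR adjusted p 2.2e-06, 1.3e-06, 2e-06 and 3e-05), and Mrp5 held 3 counts in B-gal and had a ratio of 50.8 (17.1 to 249) in IntS4-labelled, 54.7 (18.4 to 268) in IntS6-labelled, 4.43 (1.17 to 24.7) in mts and 7.87 (2.36 to 41.1) in Pp2A-29B libraries. By edgeR the adjusted p of Mrp5 were 5.1e-07, 4.2e-07, 0.08 and 0.0099. The Pp2A-29B call was lost without the Pp2A-29B library of set C (0.064), and the mts value passed without the mts library of set C (0.018). CG4829, from the list of glutathione breakdown, rose by 3.22 and 2.97 in the Integrator-labelled groups and 2.15 in mts. Without the B-gal library of set B these were 4.30, 4.06 and 3.24, and the mts call was lost without B-gal A or C (adjusted p = 0.093 and 0.081) or mts B or C (0.07 and 0.18). Faa, which acts after GstZ1 in tyrosine breakdown, had 0.97 ± 0.15 for IntS4, 0.67 ± 0.15 for IntS6, -0.80 ± 0.17 for mts and -0.38 ± 0.16 for Pp2A-29B (edgeR adjusted p 3.7e-05, 0.0015, 0.00065 and 0.073). The Pp2A-29B value of Faa passed without B-gal B (-0.54, adjusted p = 0.014) or Pp2A-29B C (-0.50, 0.036).

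Of the 3 regulators tested, Keap1 and cnc rose in 4 and 3 groups. The shares of all tested genes that rose were 27.0% in IntS4-labelled, 26.4% in IntS6-labelled, 26.6% in mts and 21.0% in Pp2A-29B libraries. Keap1, which holds the cnc protein back, had 6.17 ± 1.02 CPM in B-gal, 23.8 ± 2.53 in IntS4-labelled, 15.8 ± 1.72 in IntS6-labelled, 15.6 ± 0.768 in mts and 16.3 ± 1.86 in Pp2A-29B libraries (mean ± SD, n = 3). Against B-gal, Keap1 had log2 fold changes of 1.94 ± 0.15 for IntS4, 1.35 ± 0.15 for IntS6, 1.34 ± 0.15 for mts and 1.40 ± 0.15 for Pp2A-29B (edgeR adjusted p 3.1e-09, 5.7e-07, 8.9e-07 and 9.9e-07 in that order). The RNA of cnc itself had 149 ± 19.2 CPM in B-gal, 215 ± 13.4 in IntS4-labelled, 208 ± 15.7 in IntS6-labelled, 182 ± 6.13 in mts and 174 ± 7.2 in Pp2A-29B libraries. By edgeR, cnc differed from B-gal by 0.53 ± 0.11 for IntS4, 0.48 ± 0.11 for IntS6, 0.30 ± 0.11 for mts and 0.23 ± 0.11 for Pp2A-29B on the log2 scale, at adjusted p of 0.00037, 0.00097, 0.026 and 0.094. The mts call of cnc was lost without B-gal A or B or mts A or C (adjusted p = 0.13, 0.061, 0.063 and 0.069), and its Pp2A-29B value passed without B-gal C (0.33, 0.029). The RNA of maf-S, the partner of cnc, did not pass in any group in the fit of all groups (in mts it did with no filter, adjusted p = 0.047). For maf-S, edgeR gave log2 fold changes over B-gal of 0.14 ± 0.27 for IntS4, 0.16 ± 0.27 for IntS6, 0.52 ± 0.27 for mts and 0.15 ± 0.27 for Pp2A-29B (adjusted p 0.72, 0.66, 0.12 and 0.71). These are RNA levels, and the protein or its location in the cell was not measured.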

How the data were processed

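Per the labels' protocols, strand-specific sequencing followed removal of ribosomal RNA from total RNA of DL1 cells. The values deposited by the authors are estimated counts for each gene, without normalization: 90.1% of its values were within 0.005 of a whole number. Per the submitters' processing notes, Trimmomatic 0.39, featureCounts and the builds dm6 and BDGP6 were used, without settings. The aligner used was not given in the sources used here. How shared reads were divided is not stated either, so gene values are uncertain to that extent. Of the 17753 entries, 17626 were found in an Ensembl annotation of BDGP6, from which coordinates, exon lengths and overlaps were taken.

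Counts were rounded and tested with edgeR 4.0.16 (R 4.3.3, quasi-likelihood F test) in 1 fit of all 6 groups with TMM factors (12 residual degrees of freedom, common BCV, the biological coefficient of variation, 0.131). Genes passed filterByExpr at a minimum count of 10, which left 8699. P-values were adjusted over all of them by Benjamini-Hochberg, and genes under 0.05 were called. SE, in the text and figures, was worked back from the test and is not a fitted standard error. It is the absolute log2 fold change over the root of its F value. Where a group was not counted, as B-gal for GstD2, it depends on the prior count and is no measure of error. CPM were computed from total counts, including 138 ribosomal RNA entries, times the TMM factor. CPM per kb used summed exon length. The tests were checked on simulated counts.

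The members and gene lists were chosen with earlier results of these data known. Every member was accounted for: those tested with a group mean of 10 CPM or more outside ribosomal RNA are given per library, and GstD4, GstD6 and GstD7 by mean. From each gene list, up to 3 called genes with the largest change per comparison are named, and cnc, Keap1 and maf-S always. The main fit had no term for the set, which entered only as a block in an alternative fit. Sets were taken to pair the samples of a comparison where every same-set correlation of deviations was over 0.1. This held for B-gal with Mock (0.316 to 0.573), IntS4 with B-gal (0.224 to 0.433), IntS6 with B-gal (0.187 to 0.259) and Pp2A-29B with mts (0.102 to 0.337). Alternatives were DESeq2 1.42.0, RLE factors, totals without ribosomal RNA, no filter, only the 2 groups compared, the set as a block, counts left unrounded, and leaving out each library or set. A filter on the Mock and B-gal libraries alone was added after seeing the data.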

Additional observations from a re-analysis of the deposited data

How the results depend on the processing

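Over the 26 tested genes and 9 comparisons, 234 pairs in all, no called value changed sign under any alternative. DESeq2 lost 2 calls and gained 5, RLE factors lost 1, totals without ribosomal RNA lost 1 and gained 2, no filter lost 7 and gained 10, and unrounded counts changed none. Leaving out the whole of set A lost 27 calls, of set B 26, and of set C 9 while gaining 12. Calls that held without each single library but not without a set were GstD2 (IntS4 over B-gal, set A), GstD4 (IntS6 over B-gal, B or C), GstD5 (Pp2A-29B over B-gal, A), GstE2 (IntS4 over B-gal, C), GstO1 (IntS6 over B-gal, B, and Pp2A-29B over B-gal, B or C), GstT1 (mts over B-gal, A or B) and GstT3 (Pp2A-29B over B-gal, A). Between dsRNA groups they were GstD7 and GstE11 (mts and IntS6), GstE6 and GstE8 (mts and IntS4), GstE9 (Pp2A-29B and mts) and GstD9 (IntS6 and IntS4). Fitting only the 2 groups compared lost 6 and gained 7 of 225 pairs.

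With the replicate block, no call was lost and 11 were gained; beside the calls named in the report it changed no other call of these genes in the paired comparisons. In the other glutathione lists it also added calls for Sod1 (-0.22, adjusted p = 0.015) and CG9393 (0.39, 0.04) in IntS4-labelled and for Prx2 (0.20, 0.027) and gfzf (-0.22, 0.029) in IntS6-labelled libraries. With the replicate block the genes lower than B-gal came to 2 in IntS4-labelled and 2 in IntS6-labelled libraries, and those higher in IntS6-labelled than in IntS4-labelled libraries to 2, which also held with no filter and with the 2 groups alone (1 by DESeq2). Without ribosomal RNA in the totals, 2 were lower in IntS4-labelled libraries. In Pp2A-29B against mts, 1 gene was higher by DESeq2, with no filter and with the block, and 13 were lower with no filter. With no filter, 6 were lower in mts than in IntS4-labelled libraries. The cause was not tested.

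Leaving out 1 library or set, the genes higher than B-gal ranged from 18 to 20 (IntS4-labelled), 16 to 18 (IntS6-labelled), 17 to 20 (mts) and 15 to 18 (Pp2A-29B). The lower genes ranged from 1 to 2, 0 to 1, 3 to 4 and 1 to 2. In IntS6-labelled against IntS4-labelled libraries 0 to 1 were higher and 1 to 5 lower, and in Pp2A-29B against mts 0 to 1 were higher and 2 to 13 lower. In mts, 7 to 8 were higher and 5 to 8 lower than in IntS6-labelled libraries, and 5 to 8 higher and 5 to 9 lower than in IntS4-labelled ones. B-gal against Mock gave 0 throughout. At this depth 3 counts over a group stand for 0.0591 to 0.0722 CPM, which limits GstD2 and the untested genes.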
